A study of Mus musculus with 6 samples.

Results

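The AP-1 and immediate-early genes are 10 genes chosen by name: the FOS family genes Fos, Fosb, Fosl1 and Fosl2, the JUN family genes Jun, Junb and Jund, and Zfp36, Ier2 and Atf3. Each was read from the probe sets that the platform annotation pairs with that gene symbol alone, and the brightest over all 6 arrays stood for the gene. All 10 of 10 genes were found, among 19938 genes on the array, and each had 1 probe set. Expression was measured on 6 Affymetrix whole-transcript arrays of CD4 and CD8 double-positive (DP) thymocytes from C57BL/6 mice aged 3 weeks. Of these, 3 hold wild-type (WT) cells and 3 cells of the Hdac3 knockout (KO). The series names the knockout LCK:Hdac3 KO. The sources used here give neither the transgene behind that name nor the deleted part of Hdac3. The series' design text describes a pool of RNA of 2 mice per genotype and calls the 3 replicates biological. How mice map to arrays is not stated, so p-values measure the spread between these arrays, which may be partly technical. No treatment was given. Hdac3, the histone deacetylase of the NCoR and SMRT corepressor complexes, was lower in KO by -1.12 on the log2 scale (SE 0.08, n = 3 per genotype, limma adjusted p = 3.5e-04).

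AP-1 is a family of dimeric transcription factors. JUN proteins pair with each other or with FOS or ATF proteins through a leucine zipper, while FOS proteins need a JUN partner. Immediate-early genes are transcribed within minutes of a signal, without new protein synthesis, and in thymocytes the T cell receptor acting through MAP kinases is such a signal. ZFP36, also called tristetraprolin, is the product of an immediate-early gene that binds AU-rich messenger RNAs and speeds their decay.

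The promoters of Fosb and Zfp36 are printed because these genes passed the test between genotypes, that of Junb because its groups did not overlap, and that of Fos as the founding member of its family. The sequences are the 120 bases upstream of each RefSeq transcript start on mouse build GRCm38.p6, 5′ to 3′ on the gene's strand: chr7:19310046-19310165 (minus strand), chr7:28379229-28379348 (minus strand), chr8:84978749-84978868 (minus strand) and chr12:85473770-85473889 (plus strand). Capitals mark a CRE half-site in Fosb, Junb and Fos, a CArG box in Zfp36 and a TATA motif in Fos, while GC box matches are left in lower case (except the base in Zfp36 that the CArG box shares).
Fosb: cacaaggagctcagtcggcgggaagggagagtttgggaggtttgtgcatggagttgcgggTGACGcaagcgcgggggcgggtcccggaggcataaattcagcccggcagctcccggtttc
Zfp36: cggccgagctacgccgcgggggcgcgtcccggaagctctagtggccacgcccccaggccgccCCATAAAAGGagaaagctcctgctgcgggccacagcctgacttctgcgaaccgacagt
Junb: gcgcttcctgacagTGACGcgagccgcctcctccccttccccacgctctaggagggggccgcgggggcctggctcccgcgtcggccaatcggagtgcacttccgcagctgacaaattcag
Fos: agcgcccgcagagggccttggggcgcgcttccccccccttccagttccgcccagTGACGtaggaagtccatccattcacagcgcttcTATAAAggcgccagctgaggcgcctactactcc

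Motifs were searched on both strands of the RefSeq promoter windows, from 250 bases before to 50 after each transcript start. Windows were matched by symbol for 8 of the 10 genes, the exceptions being Fosl1 and Ier2. The CRE half-site TGACG, part of the element that CREB and ATF proteins bind, lay in the windows of 4 of 8 genes, Fos, Fosb, Junb and Atf3, against 20.8% of all 32851 windows. In Fosb it covered bases -60 to -56 from the start, and in Fos a match covered -66 to -62. The full CRE TGACGTCA, which contains the half-site on both strands, was in 0 of 8 windows (1.79% of all), and the AP-1 site TGAGTCA was in 0 of 8 (5.20% of all). The CArG box, the element that serum response factor binds, was in 1 of 8, at bases -58 to -49 of Zfp36, against 1.63% of all windows. Its first base overlaps a GC box match. TATAAA was in 2 of 8 windows, Fos and Junb (13.6% of all). In Fos it covered bases -33 to -28, and in Junb bases 0 to 5, which are not upstream of the start. The GC box GGGCGG was in 6 of 8 (35.7% of all). A match describes letters in this window and shows no binding. Bases outside the window and variants of the motifs were not searched, so no match does not show that a gene lacks the element. The genes are short: 9 of 10 are below the median RefSeq length of 17146 bases of protein-coding genes, with a median of 3286 bases.

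The comparison asked how these genes differ between DP thymocytes with and without Hdac3. Fosb and Zfp36 rose in KO, by 0.50 and 0.49 on the log2 scale, and the other 8 did not pass. Of the 23410 probe sets tested, 5.79% passed, 1.75% higher and 4.04% lower in KO (limma, Benjamini-Hochberg adjusted p under 0.05). All 3 KO arrays lay above all 3 WT arrays for 4 of the 10, Fosb, Zfp36, Junb and Ier2, against 13.5% of tested probe sets, and for none of the 10 did the KO arrays all lie below (16.5% of tested probe sets). The difference was above 0 for 7 of the 10, against 53.1% of tested probe sets. The median difference of the 10 was 0.28, against 0.02 over all tested probe sets, and was 0.14 without WT array 1 and 0.18 after median centring. Genotype means differed by between -0.21 for Jun and 0.50 for Fosb. In RNA of bulk cells, more cells of a kind and more RNA per cell cannot be told apart.

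**Figure D1:**
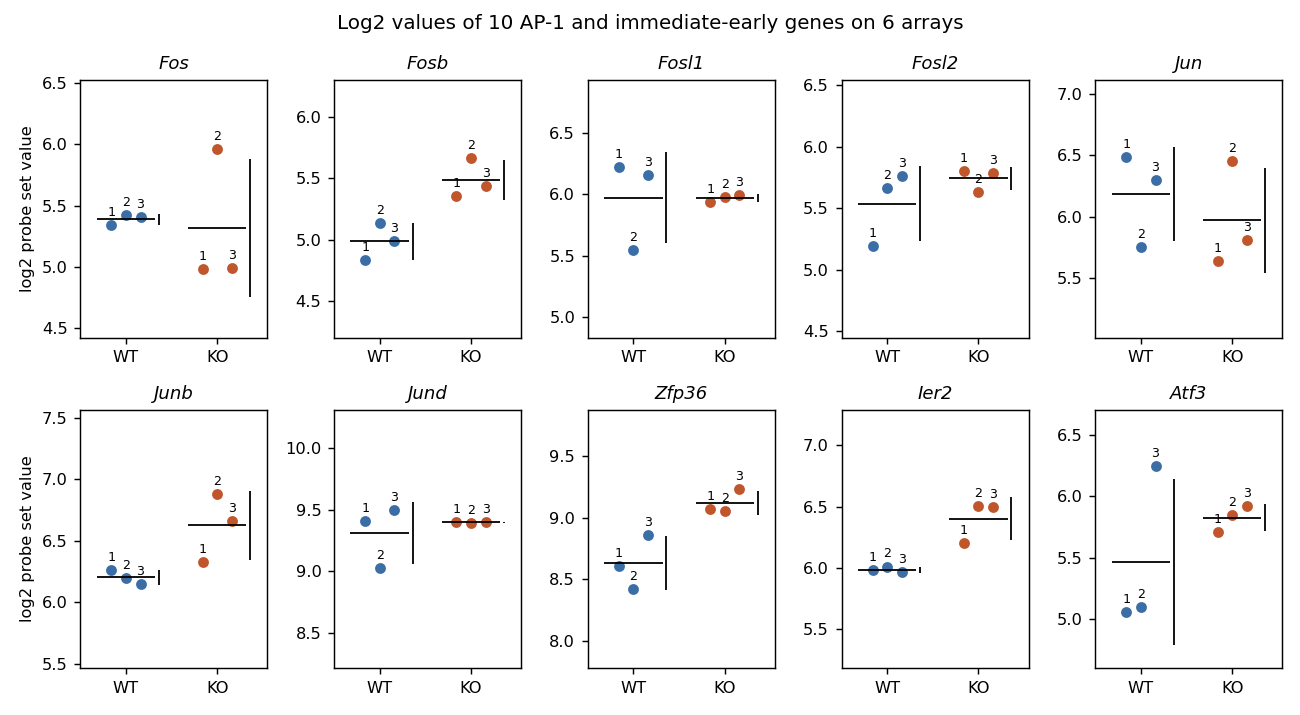
Log2 probe set values of the 10 genes, 1 panel per gene, with the 3 WT arrays (blue) and the 3 KO arrays (orange) labelled by replicate number, the mean as a horizontal line and the SD as a vertical line beside it. Every panel spans the same height; in the panels of Fosb, Junb, Zfp36 and Ier2 all KO points lie above all WT points, and in that of Fos KO array 2 stands at 5.96 while KO arrays 1 and 3 lie below WT.

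The interquartile range of log2 values was 3.06 to 3.25 on the KO arrays and 3.29 to 3.49 on the WT arrays, and the genotype difference of a typical probe set varied with its brightness. In 10 equal bins of mean signal the median difference was 0.16 in the bin of Fos, Fosb, Fosl2 and Atf3, 0.05 in that of Fosl1, Jun, Junb and Ier2, -0.13 in that of Zfp36 and -0.04 in that of Jund. Fos, Fosb, Fosl2 and Atf3 lay below the median signal of tested probe sets, and the share of background in their values is unknown. Detection calls were not used here.

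Fosb encodes a FOS family protein best known from neurons, where its truncated form accumulates with repeated stimulation. In the order of the replicate numbers, which all later values follow, it stood at 4.83, 5.13 and 4.99 (log2) in WT and 5.35, 5.67 and 5.44 in KO. KO array 2 was the highest and WT array 1 the lowest, and the groups did not overlap. The mean rose from 4.98 ± 0.15 to 5.48 ± 0.16 (SD, n = 3), a difference of 0.50 (SE 0.12, 95% interval 0.24 to 0.76) or 1.42-fold (limma adjusted p = 0.041). It lay 0.34 above the median of probe sets of like signal. The call was lost without any 1 array. The differences were then 0.43, 0.57 and 0.50 without WT arrays 1, 2 and 3 and 0.57, 0.41 and 0.52 without KO arrays 1, 2 and 3, with limma adjusted p of 0.052 to 0.13. It was also lost after quantile normalization (0.39, limma adjusted p = 0.077), cyclic loess normalization (0.37, limma adjusted p = 0.080) and median centring (0.40, limma adjusted p = 0.051).

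Fos, the founding immediate-early gene of the family, did not pass. Its values were 5.34, 5.42 and 5.40 in WT and 4.99, 5.96 and 5.00 in KO. KO arrays 1 and 3 lay below every WT array and KO array 2 above every one. The means were 5.39 ± 0.04 in WT and 5.31 ± 0.56 in KO (SD, n = 3), a difference of -0.074 (SE 0.23, 95% interval -0.58 to 0.43, limma adjusted p = 0.86). KO array 2 decided the value. Without it the difference was -0.40 (limma adjusted p = 0.093), and -0.49 after quantile normalization as well, which passed (limma adjusted p = 0.041), while without KO array 1 or 3 it was 0.091 and 0.085 (limma adjusted p = 0.83 and 0.86).

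The FOS-related genes Fosl1 and Fosl2, which encode the proteins FRA-1 and FRA-2, did not pass. Fosl1 had 6.22, 5.55 and 6.16 in WT and 5.94, 5.98 and 5.99 in KO. Its WT arrays enclosed the KO arrays, which spanned 0.06, and the difference was -0.0033 (95% interval -0.37 to 0.36, limma adjusted p = 0.99). Fosl2 had 5.19, 5.66 and 5.76 in WT and 5.80, 5.64 and 5.79 in KO, a difference of 0.20 (95% interval -0.12 to 0.53, limma adjusted p = 0.40). KO arrays 1 and 3 exceeded all WT arrays and KO array 2 did not. Without WT array 1, the lowest, the difference of Fosl2 was 0.03.

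**Figure D2:**
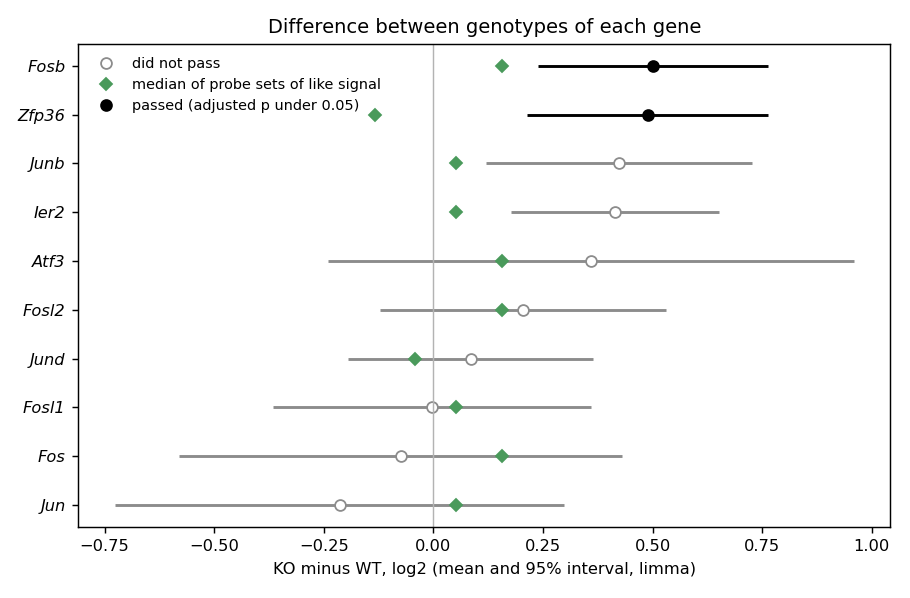
Difference of each gene (KO minus WT, log2) as a point with its 95% interval from the limma fit, n = 3 arrays per genotype, filled where the adjusted p was under 0.05; green diamonds give the median difference of the bin of probe sets of like signal. The intervals of Fosb, Zfp36, Junb and Ier2 lie above 0, and those of the other 6 include 0.

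Among the JUN genes, which provide the partners that FOS proteins require, the 3 members differed in sign and in spread. Junb, whose product can restrain JUN at some promoters, had 6.27, 6.19 and 6.15 in WT and 6.33, 6.88 and 6.66 in KO. The groups did not overlap, with KO array 1 just above WT. The means were 6.20 ± 0.06 and 6.63 ± 0.28 (SD, n = 3), a difference of 0.42 (SE 0.14, 95% interval 0.12 to 0.73) that did not pass (limma adjusted p = 0.095). It passed without KO array 1 (0.57, limma adjusted p = 0.037), and without KO array 2, the highest, the difference was 0.29 (limma adjusted p = 0.27). After median centring the groups of Junb overlapped.

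Jun, the main target of the JNK kinases, was measured at 6.49, 5.76 and 6.30 in WT and 5.64, 6.45 and 5.81 in KO. Both genotypes held high and low arrays, and their ranges of 0.73 and 0.81 overlapped almost throughout. The difference was -0.21 (SE 0.23, 95% interval -0.73 to 0.30, limma adjusted p = 0.58), and -0.46 without KO array 2 (limma adjusted p = 0.27). Without WT array 1 it was -0.06 and without KO array 1 it was -0.05, while without WT array 2 it was -0.43. Jund, the JUN gene that is expressed more steadily than the others, had 9.41, 9.03 and 9.50 in WT and 9.40, 9.39 and 9.40 in KO. The KO arrays spanned 0.011 and lay within the WT range. The difference was 0.086 (95% interval -0.19 to 0.36, limma adjusted p = 0.70), and it was negative after median centring and without WT array 2.

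Zfp36 was the other gene to pass. Its log2 values read 8.61, 8.42 and 8.86 in WT and 9.07, 9.05 and 9.23 in KO. Every KO array exceeded the highest WT array, WT array 3. The mean rose from 8.63 ± 0.22 to 9.12 ± 0.10 (SD, n = 3), a difference of 0.49 (SE 0.12, 95% interval 0.21 to 0.76) or 1.40-fold (limma adjusted p = 0.049). The rise was 0.62 above the median of probe sets of like signal, the furthest of the 10 genes. Quantile and cyclic loess normalization gave 0.60 in each case (limma adjusted p = 0.045 and 0.039). The call was kept without WT array 3 (0.60, limma adjusted p = 0.021) and lost without any other array, with 0.48 and 0.38 without WT arrays 1 and 2 and 0.51, 0.52 and 0.43 without KO arrays 1, 2 and 3 (limma adjusted p = 0.085 to 0.15). It was lost as well after median centring (0.39, limma adjusted p = 0.072) and with every probe set tested (0.49, limma adjusted p = 0.060).

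Ier2 encodes a nuclear protein induced by growth factors, and its adjusted p lay just above the threshold. It had 5.98, 6.01 and 5.97 in WT and 6.20, 6.51 and 6.49 in KO. WT arrays spanned 0.05, and the lowest KO array lay above them all. The means were 5.99 ± 0.02 and 6.40 ± 0.17 (SD, n = 3), a difference of 0.41 (SE 0.11, 95% interval 0.18 to 0.65, limma adjusted p = 0.052). It passed when dim probe sets were left out (limma adjusted p = 0.028), with array quality weights (0.41, limma adjusted p = 0.040) and without KO array 1 (0.51, limma adjusted p = 0.036).

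Atf3, a stress-induced repressor that pairs with JUN proteins, was measured at 5.06, 5.10 and 6.25 in WT and 5.71, 5.85 and 5.92 in KO. WT array 3 stood above all KO arrays and the other WT arrays below them. The difference was 0.36 (SE 0.27, 95% interval -0.24 to 0.96, limma adjusted p = 0.42), and 0.75 without WT array 3, which passed (limma adjusted p = 0.0084). Without WT array 1 or 2 it was 0.15 and 0.17. The 4 least repeatable of the 10 genes were Atf3, Jun, Fos and Fosl1, with SDs within genotypes of 0.48, 0.41, 0.40 and 0.26, against a median of 0.13 over all tested probe sets.

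**Figure D3:**
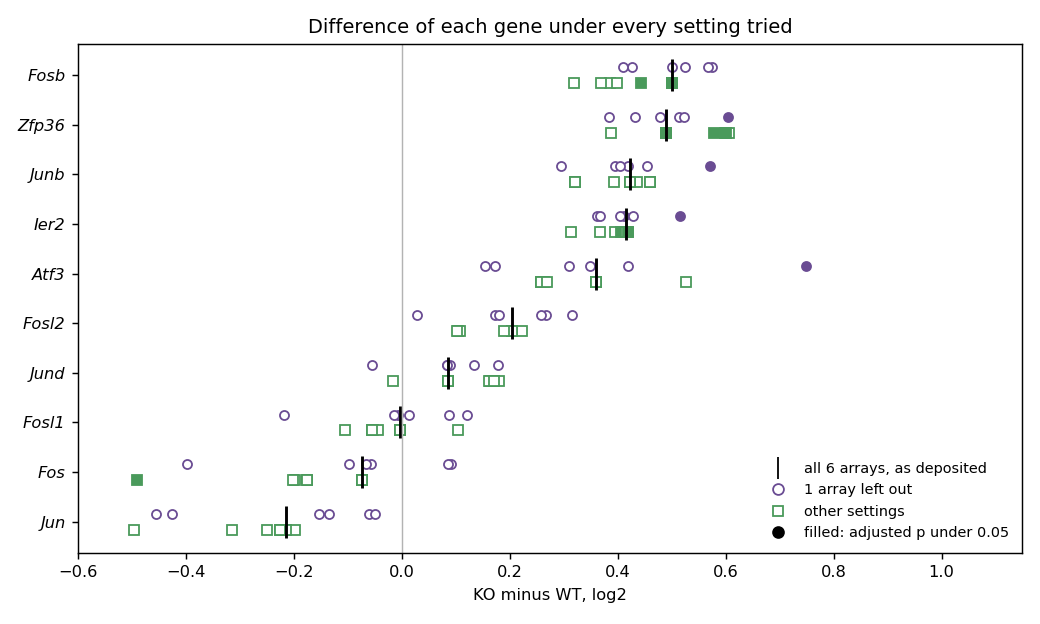
Difference of each gene (KO minus WT, log2) with all 6 arrays as deposited (vertical tick), with 1 array left out (circles) and under the other settings (squares), filled where the limma adjusted p was under 0.05. All values of Fosb, Zfp36, Junb, Ier2, Atf3 and Fosl2 lie above 0 and those of Jun below 0, while Fos, Fosl1 and Jund take both signs.

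KO array 2 also carried signal of neutrophil genes. All 15 of 15 neutrophil markers were higher there than the mean of the other KO arrays, by a median of 0.87 on the log2 scale, against 0.01 over all tested probe sets. Of the 23410 tested probe sets 12220 were higher there. The median deviation of the markers from the WT mean was 0.92 on KO array 2, 0.07 and 0.09 on KO arrays 1 and 3 and -0.02 to 0.08 on the WT arrays. The linear signals of the 15 summed to 1172 on KO array 2, 422 and 426 on KO arrays 1 and 3 and 366 to 401 on the WT arrays. S100a9, a calcium-binding protein of neutrophils, stood at 7.58 on KO array 2 against 4.37 and 4.57 on the other KO arrays. No marker can be called absent on a log2 scale without detection calls.

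Several of the 10 genes were also highest on that array. Fos exceeded the mean of KO arrays 1 and 3 by 0.97, Jun by 0.73, Junb by 0.39, Fosb by 0.27 and Ier2 by 0.16. Atf3, Fosl1 and Jund differed from that mean by 0.03, 0.01 and -0.01, Zfp36 by -0.10 and Fosl2 by -0.16. The median of the 10 was 0.10, against 0.87 for the neutrophil markers and 0.01 over all tested probe sets. Above 0 were 7 of the 10 and 12220 of the 23410 tested probe sets. Of the 10 genes, 4 had their highest value of all 6 arrays there, Fos, Fosb, Junb and Ier2. The share of all tested probe sets highest there was not computed. KO array 2 had the highest median value of the 6 arrays, 5.70. Between KO arrays 1 and 3 and the WT arrays, Zfp36 differed by 0.52, Fosb by 0.41, Ier2 by 0.36 and Atf3 by 0.35. Junb differed by 0.29, Fosl2 by 0.26 and Jund by 0.09. Fosl1 differed by -0.0075, Fos by -0.40 and Jun by -0.46. In this fit of the deposited values none of the 10 passed (limma, 4 higher and 2 lower at an unadjusted p under 0.05). The part of neutrophil RNA in the values of KO array 2 was not tested.

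**Figure D4:**
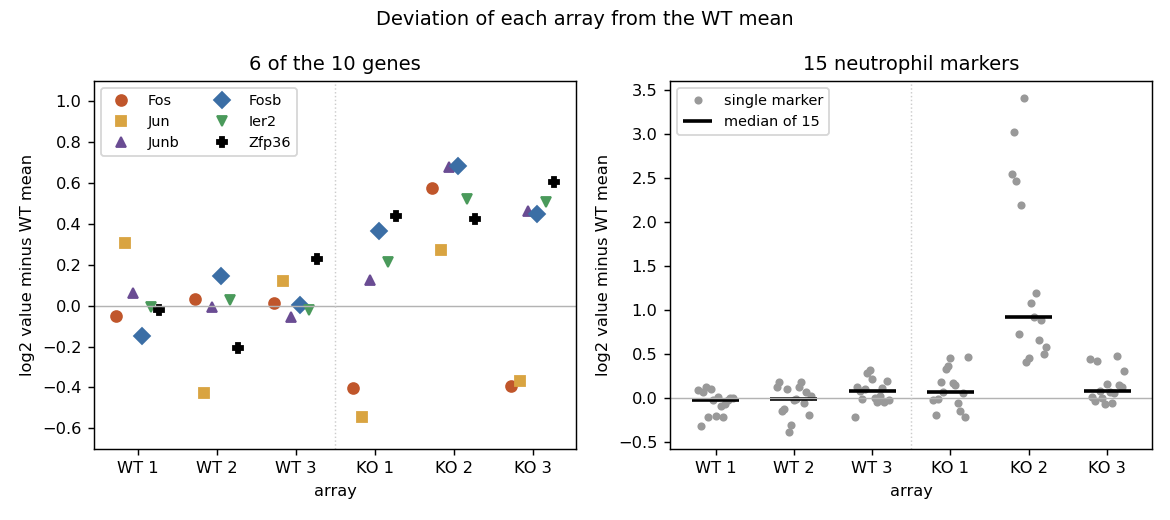
Log2 value minus the WT mean on each of the 6 arrays, for 6 of the 10 genes (left, 1 symbol per gene) and for 15 neutrophil markers (right, grey points, with their median as a bar). On KO array 2 the marker median is 0.92 and Fos lies above the WT mean, whereas Fos lies below it on KO arrays 1 and 3.

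Macrophage and dendritic cell markers were less marked there. Their summed signal was 578 on KO array 2, 451 and 453 on the other KO arrays and 368 to 419 on the WT arrays. On KO array 2 the 14 exceeded the mean of the other KO arrays by a median of 0.08, with 8 positive. The median over all tested probe sets was 0.01, with 12220 of 23410 positive. Lyz1 and Lyz2 exceeded that mean by 1.47 and 2.03, while Itgax was lower by -0.90. Lyz2, a lysozyme shared by macrophages and neutrophils, was at 6.65 on KO array 2 against 4.54 and 4.71 on the other KO arrays. None of the 14 passed (limma; 3 higher and 0 lower at an unadjusted p under 0.05), with C1qa, a complement gene of macrophages, at 0.39 and the dendritic cell factor Zbtb46 at 0.34. Of the 15 neutrophil markers Cebpe, a granulocyte factor, rose by 0.45 (limma adjusted p = 0.032), and its call was lost without WT array 1 or 2 or KO array 1 or 2 (0.39 to 0.53 over all leave-one-out fits). Of 11 markers of DP thymocytes 10 were measured, and all lay above the median signal. Cd1d1, which presents lipids, fell by 0.65, a call lost without WT array 1 or 2 or KO array 2 or 3 (-0.73 to -0.53), 9 did not pass, and the summed signal was 27200 to 30300 in WT and 28190 to 29170 in KO.

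Genes induced by handling of cells were measured as well. None of 10 measured heat shock and dissociation genes passed (limma; 0 higher and 1 lower at an unadjusted p under 0.05), with a median difference of 0.02. Of all tested probe sets 5.79% passed. The list holds heat shock genes and Hmox1, and none of the AP-1 and immediate-early genes. An effect of handling on the AP-1 and immediate-early genes was not tested. Hspa1a, the inducible HSP70, differed by 0.026 (95% interval -0.21 to 0.27), and its sign turned after quantile, cyclic loess and median scaling. Hspe1, a mitochondrial chaperonin, differed by -0.32 (limma adjusted p = 0.098) and the small heat shock gene Hspb1 by 0.23 (limma adjusted p = 0.25).

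Other immediate-early genes fell or did not pass. Of 30 measured, 4 fell, 0 rose and 26 did not pass. Of all tested probe sets 4.04% fell and 1.75% rose. Of the 30, 21 lay above the median signal, where 2.48% to 10.6% of the probe sets of a signal bin fell. At an unadjusted limma p under 0.05, 3 of the 30 were higher and 5 lower. The median difference of the list was 0.0049, against 0.02 over all tested probe sets. Its sign differed after cyclic loess and median scaling. With limma's trend and robust options 1 gene of the list passed as higher. Myc, the growth regulator, had 7.95, 7.91 and 7.76 in WT and 6.84, 6.18 and 6.81 in KO, a fall of -1.26 (SE 0.17, limma adjusted p = 0.0035). Egr2 and Egr1, zinc finger factors induced by the T cell receptor, fell by 0.91 (SE 0.11) and 0.79 (SE 0.09), with limma adjusted p of 0.0023 and 0.0024. Egr1 stood at 7.33, 7.35 and 7.37 in WT and 6.51, 6.69 and 6.49 in KO. The orphan nuclear receptor Nr4a3 fell by 0.73 (SE 0.11, limma adjusted p = 0.0057).

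These 4 calls were kept in each of the 6 fits with 1 array left out. Nr4a1, a relative of Nr4a3 and a common reporter of T cell receptor signals, differed by -0.062 (95% interval -0.36 to 0.24). Dusp1, a phosphatase of MAP kinases, differed by 0.22 (95% interval -0.04 to 0.48) and Cd69, an early activation antigen, by 0.35 (95% interval 0.03 to 0.68, limma adjusted p = 0.17).

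Upstream of AP-1, kinases and their inhibitors rose and fell. Of 23 measured genes of the MAP kinase route 2 rose, 3 fell and 18 did not pass. Of all tested probe sets 1.75% rose and 4.04% fell. The median difference of the list was -0.16. Dusp5, a nuclear phosphatase of ERK, rose by 1.26 (SE 0.11, limma adjusted p = 7.6e-04), with 7.69, 7.45 and 7.62 in WT and 8.67, 8.89 and 9.01 in KO. Spred2, an inhibitor of the RAS to ERK route, chosen after its value was seen as the other gene to rise, was higher by 0.44 (limma adjusted p = 0.028), a call lost without any array but WT array 3. Mapk8, the kinase JNK1 that phosphorylates JUN, fell by 0.49, Braf, a kinase upstream of ERK, by 0.48 and Map3k4, a kinase upstream of JNK and p38, by 0.45 (limma adjusted p = 0.022 to 0.029). Dusp5 was kept in every leave-one-out fit, whereas Mapk8 was lost without WT array 1 or 2 or KO array 1 or 2 (-0.57 to -0.44), and Braf (-0.54 to -0.45) and Map3k4 (-0.52 to -0.41) without WT array 1 or 2 or KO array 2 or 3. After quantile normalization 1 of the list fell and 2 rose, and the median was -0.046 (-0.047 after cyclic loess normalization). Of the 23 probe sets 21 lay above the median signal.

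Of 17 measured genes of serum response factor, its partners and the CREB route, 3 fell, 0 rose and 14 did not pass. Of all tested probe sets 4.04% fell and 1.75% rose. At an unadjusted limma p under 0.05, 0 of the list were higher and 7 lower. The median was -0.19, and -0.07 after quantile normalization, where 1 fell. Most of these probe sets are bright, 16 of 17 above the median signal. In the signal bins above it, the median difference was 0.05 in the 6th and -0.17 to -0.04 from the 7th on. Rps6ka5, the kinase MSK1 that phosphorylates histone H3 and CREB at immediate-early genes, fell by 0.58, Crem, a CREB relative, by 0.56 and Rps6ka3, the kinase RSK2, by 0.48 (limma adjusted p = 0.047, 0.017 and 0.041). Without WT array 1 or 2 or KO array 2 none of the list passed. Leave-one-out differences were -0.73 to -0.47 for Rps6ka5, lost without WT array 1 or 2 or KO array 2 or 3, -0.64 to -0.50 for Crem, lost without WT array 1 or 2 or KO array 2, and -0.58 to -0.42 for Rps6ka3, lost without any array but WT array 3.

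Other leucine zipper partners moved in both directions. Of 16 measured, Maf, a factor of helper T cell programmes, rose by 0.66 (limma adjusted p = 0.014), Crem fell and 14 did not pass. Of all tested probe sets 1.75% rose and 4.04% fell. Maf had 4.89, 5.16 and 5.32 in WT and 5.81, 5.75 and 5.80 in KO, and its call was lost without KO array 3 (0.55, limma adjusted p = 0.056). Jdp2, a repressor that pairs with JUN, had 6.16, 5.60 and 6.18 in WT and 6.47, 6.84 and 6.42 in KO. Its difference of 0.60 (95% interval 0.21 to 0.98) did not pass (limma adjusted p = 0.072), nor did that of Batf, a JUN partner of lymphocytes (0.29, 95% interval 0.06 to 0.51, limma adjusted p = 0.12).

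**Figure D5:**
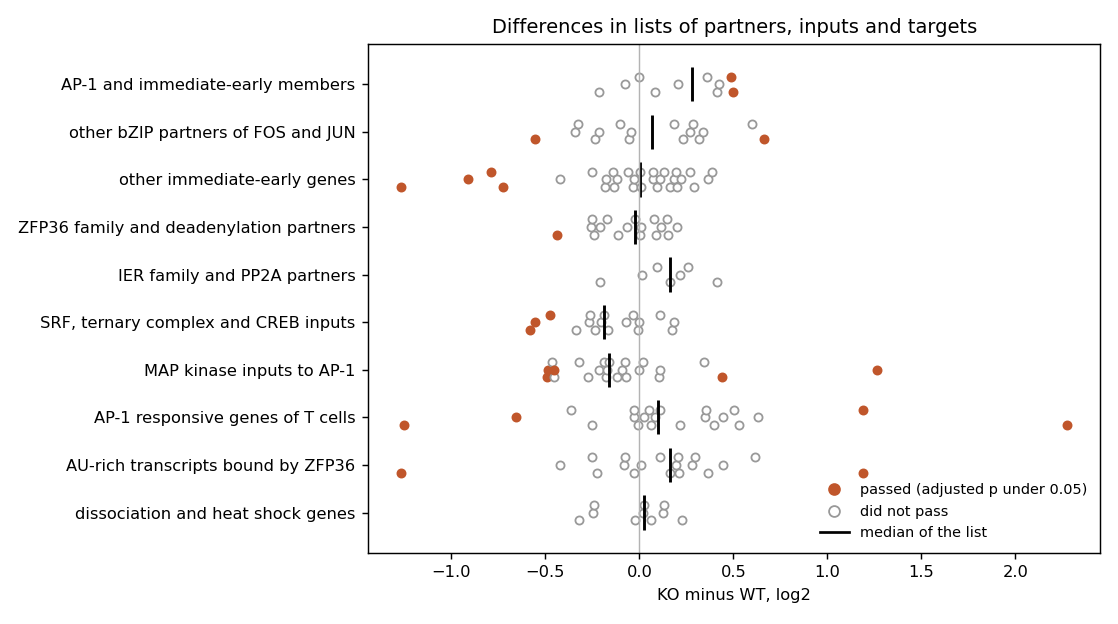
Difference of every measured gene (KO minus WT, log2) in the 10 genes and in lists of their partners, inputs, targets and stress genes, with orange filled points for genes at a limma adjusted p under 0.05 and a bar at each list's median. Genes can belong to more than 1 list; the lowest points are Myc at -1.26 and Vim at -1.25 and the highest is Il2ra at 2.28.

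Of 17 measured genes of the ZFP36 family and of messenger RNA decay, 1 fell, 0 rose and 16 did not pass (limma; 0 higher and 3 lower at an unadjusted p under 0.05), where 5.79% of all tested probe sets passed. Zfp36l2, which with Zfp36l1 restrains the cell cycle of early thymocytes, had 9.19, 9.20 and 8.96 in WT and 8.76, 8.69 and 8.59 in KO. It fell by 0.44 (SE 0.10, limma adjusted p = 0.040), a call lost without any array but WT array 3 (leave-one-out -0.51 to -0.40) and lost after quantile and cyclic loess normalization. Zfp36l1 differed by -0.26 (95% interval -0.59 to 0.08). Among 7 genes of the IER family and its phosphatase partners none passed (limma; 3 higher and 1 lower at an unadjusted p under 0.05), and Ier5l, an IER relative, differed by 0.26 (limma adjusted p = 0.15).

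Genes that AP-1 or ZFP36 is known to act on changed in both directions. Of 22 measured AP-1 responsive genes of T cells 2 rose, 2 fell and 18 did not pass. Of all tested probe sets 1.75% rose and 4.04% fell. The median of the list was 0.10. Leaving out WT arrays 1, 2 and 3 in turn gave medians of 0.03, 0.18 and 0.17, leaving out KO array 2 gave 0.05, and median centring gave -0.0034. Without WT array 3, with array quality weights and with the replicate block 5 of the list rose. Only 6 of the 22 lay above the median signal. In the signal bins below it, up to the 5th, the median difference was 0.02 to 0.16. Signal over background is unknown for the dim genes, so not passing does not show unchanged expression. Il2ra, the interleukin-2 receptor alpha chain, rose by 2.28 (SE 0.29, limma adjusted p = 0.0033), from 6.23, 4.99 and 5.33 in WT to 7.92, 7.36 and 8.09 in KO. Vim, the intermediate filament vimentin, fell by 1.25 (SE 0.14) and Cd44, an adhesion receptor, by 0.66 (SE 0.09), with limma adjusted p of 0.0018 and 0.0034. Of 19 measured AU-rich messages that ZFP36 binds, Fos among them, Tnf rose, Myc fell and 17 did not pass, with a median of 0.16. The median was 0.07 without WT array 1, 0.09 without KO array 3 and 0.06 after median centring, and 3 of the list rose with the replicate block. Of the 19, 7 lay above the median signal. Tnf, the cytokine whose message is the classical ZFP36 target, had 5.86, 5.97 and 6.23 in WT and 7.13, 7.35 and 7.15 in KO, a rise of 1.19 (SE 0.12, limma adjusted p = 0.0011). The calls of Il2ra, Vim, Cd44, Tnf and Myc were kept in every leave-one-out fit.

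Genes with the profile most like those of the genes that passed were sought by the root mean square difference of centred log2 values over the 6 arrays, among genes with 1 symbol above the median signal, 9877 for Zfp36 and 9878 for Fosb. Nearest to Zfp36, whose own values deviated by 0.28 from their mean, was Arid5a, an AT-rich interaction domain protein, at 0.022, followed by Socs3, a suppressor of cytokine signalling, at 0.048 and the cytokine gene Il17c at 0.054. Arid5a had 7.09, 6.94 and 7.35 in WT and 7.56, 7.58 and 7.70 in KO, a rise of 0.49 (limma adjusted p = 0.044), and Il17c rose by 0.53 (limma adjusted p = 0.042). Both calls were lost without any array but WT array 3 (leave-one-out 0.39 to 0.60 for Arid5a and 0.43 to 0.67 for Il17c). Nearest to Fosb were Kcnk3, a potassium channel, at 0.045, Col13a1, a transmembrane collagen, at 0.057 and the probe set of the microRNA gene Mir212 at 0.059. The likeness describes the 6 arrays alone, which all probe sets share.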

How the data were processed

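The authors deposited 1 log2 value per probe set for each of 6 arrays of DP thymocytes (3 WT, 3 KO). The log2 scale follows from the range of the values, 1.94 to 13.98. The sources used here do not give their background correction or normalization. Groups and replicate numbers came from the sample titles. Of 28853 probe sets, the 23410 with at least 1 gene symbol in the platform annotation were fitted with limma 3.58.1 (lmFit and eBayes, R 4.3.3) on genotype, two-sided, with Benjamini-Hochberg adjustment over all of them and a threshold of 0.05. A single-gene exact permutation test of 3 and 3 arrays has a smallest p of 0.1. The fit was tested on simulated data. The 10 genes and all gene lists, 223 of whose 243 genes were measured, were chosen with earlier results of these data known. Genes named from a list are the 4 called with the largest differences, or, with none called, the 2 of smallest p, together with a few given in any case. S100a9, Lyz1, Lyz2, Itgax and Spred2 are named outside this rule, after their values were seen. The number of arrays limits the precision. Quantile, cyclic loess and median scaling, a filter on dim probe sets, the test of all probe sets, limma's trend and robust options, array quality weights, a replicate block and each array left out in turn were the alternatives. Quantile normalization with the filter was added after seeing the data.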

Additional observations from a re-analysis of the deposited data

How the results depend on the processing

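Of the 10 genes, 2 passed with all arrays as deposited. This count was 1 after quantile normalization (Zfp36), 1 after cyclic loess normalization (Zfp36), 1 with every probe set tested (Fosb), 1 after quantile normalization without KO array 2 (Fos, lower) and 0 after median centring, and 0 to 2 with 1 array left out. The 2 without WT array 3 were Zfp36 and Atf3, and the 2 without KO array 1 were Junb and Ier2. The probe sets passing numbered 1355 of all tested, 2060 after median centring, 2285 with array quality weights, 437 after quantile normalization without KO array 2, and 474 to 1946 with 1 array left out. Higher calls made up 30.2% of all, and, with 197 of 2060, 9.56% once arrays were centred on their medians, where the median of all tested probe sets was -0.08 in place of 0.02; with quantile normalization and the dim filter the share was 41.4%. In the wider lists, without the cell type markers and the 10 genes, 18 genes passed. The count was 10 after quantile normalization without KO array 2 and 10 to 22 with 1 array left out. These lists share genes and held 7 to 30 measured genes each. Their total without repeats is not given here, so the 18 cannot be set against the 5.79% of all tested probe sets that passed. The leave-one-out range was -0.40 to 0.091 for Fos, -0.22 to 0.12 for Fosl1 and -0.056 to 0.18 for Jund. Fosl1 was 0.10 with array weights and Jund -0.016 after median centring. Nr4a1 turned to 0.071 after quantile normalization, with or without the dim filter, 0.061 after cyclic loess, 0.0014 with array weights and 0.019 after quantile normalization without KO array 2 (leave-one-out -0.17 to 0.07). Hspa1a was -0.049 after quantile normalization, with or without the dim filter, -0.050 after cyclic loess, -0.075 after median centring and -0.068 after quantile normalization without KO array 2 (leave-one-out -0.045 to 0.11), and Cd79b, a B cell gene, 0.074 in that last setting. The causes were not tested. Arrays with the same replicate number correlated at 0.25, -0.071 and -0.033 in their deviations and are not known to be paired; the replicate block gave 1162 calls, with Fosb and Zfp36 called as before. Signal over background is unknown, which limits the dim genes Fos, Fosb, Fosl2 and Atf3. The same limit holds for the called genes Nr4a3, Maf, Cd44, Il7r, Epcam and Klf1, which also lay below the median signal.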

Other observations

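Markers of further cell types were read beside the 10 genes, where 5.79% of all tested probe sets passed. Of 7 measured B cell markers none passed (limma; 0 higher and 0 lower at an unadjusted p under 0.05); Pax5, the B lineage factor, differed by 0.24 and Cd79b, a chain of the B cell receptor, by -0.15. Among 4 measured erythroid markers Klf1, the erythroid factor, rose by 0.44 (limma adjusted p = 0.047), and its call was lost without WT array 1 or 2 or KO array 2 or 3 (0.37 to 0.52). Epcam, an epithelial adhesion gene, fell by 0.37 and was the 1 of 10 thymic stroma markers to pass (limma adjusted p = 0.044), a call lost in each of the 6 fits without 1 array (-0.41 to -0.34). The list's median was 0.16 and 8 of its 10 genes were above 0, without passing. Il7r, the interleukin-7 receptor chain, fell by 1.19 (SE 0.17, limma adjusted p = 0.0056) and was the 1 of 6 measured markers of mature single-positive cells to pass. The list's median was 0.25 and 4 of its 6 genes were above 0, 2 of them at an unadjusted p under 0.05, without passing. Of 8 markers of the double-negative stage Il2ra rose, Cd44 fell and 6 did not pass.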
